A study of Mus musculus with 6 samples.

Results

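The genes described here encode the proteins of the cytosolic ribosome, the machine that reads mRNA and joins amino acids in the cytoplasm. They were chosen by symbol alone: names that start with Rpl or Rps and go on with a number, together with Rplp0, Rplp1, Rplp2 and Rpsa, leaving out the S6 kinases and pseudogenes. The rule gave 83 protein-coding genes in the RefSeq annotation of the mouse assembly GRCm38.p6, of which 81 had a probe on the array and 78 could be tested, among 12470 genes tested in all. Rpl32l and Rps23 matched no probe. Rpl3l was well above background on no array, Rpl10l on at most 1 and Rpl39l on 2, and these paralogues were not tested. All 78 tested genes were well above background on all 6 arrays, so that none entered through a single group.

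The arrays compared cultured lung fibroblasts of Mmp19_KO mice, which lack the matrix metalloproteinase Mmp19, with those of WT mice, in groups of 3 and 3. Every mouse, WT included, had been given 0.08 u of bleomycin, a drug that injures the lung, into the trachea, so that no uninjured animal stands in the comparison. The labels describe females of 11 weeks. Fibroblasts were isolated at day 21 and kept in culture for 72 hours, and the series text speaks of independent experiments. The sources do not say how many animals went into a culture.

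Ribosomal proteins and ribosomal RNA join in the nucleolus into a large and a small subunit, which meet on an mRNA in the cytoplasm. Their mRNAs are among the most abundant of a cell, and most begin with a C and a run of pyrimidines, the 5′ terminal oligopyrimidine tract, through which mTORC1 and Larp1 govern their translation. Fibroblasts that make matrix secrete much collagen, and their protein output depends on ribosomes as well as on mRNA. An array measures mRNA amounts and says nothing of how often each mRNA is read.

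Signals are given as log2 of the scanner's processed signal minus the array's own 75th percentile, so that each value is relative to the other probes of that array. A change is the Mmp19_KO mean minus the WT mean on that scale. Processed signal at the 75th percentile lay between 138 and 328 on the Mmp19_KO arrays and between 190 and 290 on the WT arrays. The share of spots that stood well above background was 43.1% to 52.5% on the Mmp19_KO arrays and 44.6% to 54.5% on the WT arrays. Mmp19 itself was well above background on 0 of 3 Mmp19_KO arrays and on 3 of 3 WT arrays. WT replicate 2 correlated at 0.94 with WT replicate 1 and 0.96 with WT replicate 3, where those correlated at 0.98 with each other. Xist was well above background on 3 of 3 Mmp19_KO arrays and 0 of 3 WT arrays, while the Y-linked Ddx3y and Eif2s3y were so on all 6. These detections do not match the labelled sex. The change of Xist was 5.02 (limma adjusted p = 0.003). That of Eif2s3y was -3.21 (limma adjusted p = 0.11) and that of Ddx3y -2.47 (limma adjusted p = 0.14). Detection of Xist thus ran with genotype on all 6 arrays. Sex was not separated from genotype in any comparison given here, and its part in the changes was not tested. Of the fibroblast markers 13 of 14 were well above background on all 6 arrays. So were 8 of 12 lung epithelial, 4 of 10 macrophage and leukocyte, 5 of 8 endothelial and 4 of 8 mesothelial markers. Detection alone thus does not single out fibroblasts. Signal summed over the tested markers, in multiples of each array's 75th percentile, ran from 1305 to 2730 for 14 fibroblast markers. It ran from 42.2 to 65.3 for 9 epithelial and from 48.4 to 111 for 5 macrophage and leukocyte markers. For 5 endothelial markers it ran from 3.67 to 5.67, and for 8 mesothelial markers from 2.73 to 131.

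No ribosomal protein gene passed the test between Mmp19_KO and WT fibroblasts: 0 of 78 were past the threshold in either direction by limma's moderated test, at an adjusted p of 0.05 over all probes. Of all genes, 4.8% were past it, 412 higher and 186 lower in Mmp19_KO. At an unadjusted p of 0.05, 1 ribosomal protein gene, Rpl22, and 21.8% of all genes were past. That count of 1 ran from 0 to 7 over the alternatives to the processing, with 7 when the 75th percentile was taken over detected probes and 4 with the authors' values. A p above the threshold does not show that a gene had the same level in both groups, and the intervals bound how far it could differ. The 95% interval of the change lay wholly within 1 log2 unit of 0 for 67 of the 78 genes (85.9%), against 46.2% of all genes tested. The change itself was smaller than 0.5 for 74 (94.9%), against 63.8% of all genes. The mitochondrial ribosomal protein genes, a separate family of 77 tested genes, had nearly the same shares, 85.7% for the interval and 90.9% for the change.

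The median change of the 78 genes was -0.05, and 0.00 when arrays were scaled on the median of all probes. Their quartiles were -0.21 and 0.14. Over all genes tested the median was 0.08, with quartiles at -0.26 and 0.44. Among ribosomal protein genes 35 values were above 0 and 43 below it, a balance that turned with single arrays and with the scaling. Without WT replicate 1 there were 43 above and 35 below (median 0.05), and without WT replicate 2 there were 21 above and 57 below (median -0.14). With the 75th percentile taken over probes detected on all arrays, 22 were above and 56 below (median -0.16). The size of the change, whatever its sign, had a median of 0.17 for the ribosomal protein genes, 0.18 for the mitochondrial family and 0.36 for all genes. The median standard error was 0.22 for ribosomal protein genes and 0.27 for all genes. Groups without overlap were found for 4 genes higher and 11 lower in Mmp19_KO. Among the 4 were Rpl35a, Rpl31 and Rpl15, and among the 11 were Rpl22, Rps19, Rps20, Rplp2, Rpl8, Rps10, Rpl36, Rpl14, Rps15a and Rps27a. Over all genes 31.1% had groups without overlap, 21.2% with Mmp19_KO higher and 9.82% with Mmp19_KO lower. With 3 arrays a group an exact permutation test cannot go below 0.1, so separation of a single gene is no test result. In RNA from whole cultures, fewer cells of a type and less RNA per cell cannot be told apart.

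**Figure D1:**
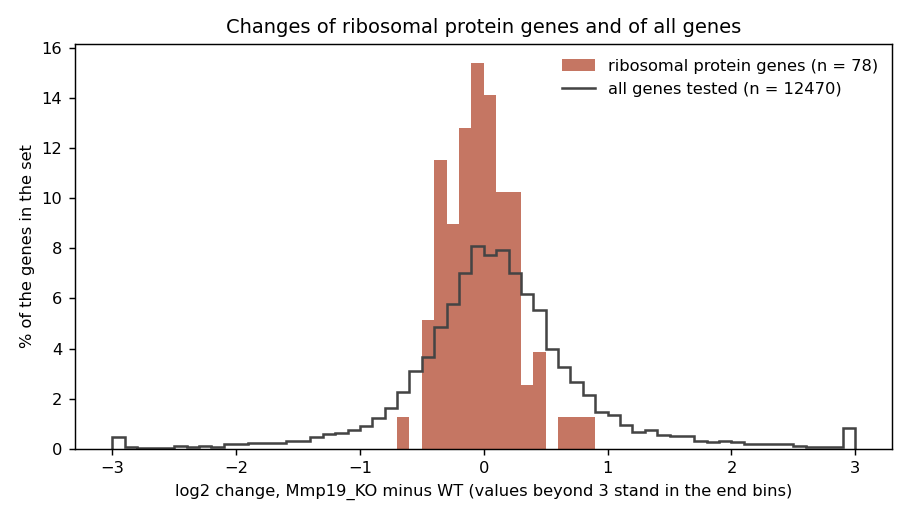
Share of genes (%) in each bin of log2 change, Mmp19_KO minus WT, for the 78 ribosomal protein genes (filled) and all 12470 genes tested (line). Ribosomal protein genes run from -0.63 to 0.82, while the distribution of all genes is wider.

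The 48 genes of the large subunit had a median change of 0.02, with 26 above 0 and 22 below it, and the median was -0.09 with the 75th percentile taken over probes detected on all arrays. Those of the small subunit numbered 30, with a median of -0.13, 9 above 0 and 21 below it. With that other scaling the small-subunit median was -0.25, with 5 above 0 and 25 below, and without WT replicate 1 it was -0.07, with 13 above and 17 below. Neither subunit held a gene past the threshold, and the difference between the subunits was not tested. Without WT replicate 2 the medians were -0.11 for the large and -0.19 for the small subunit.

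**Figure D2:**
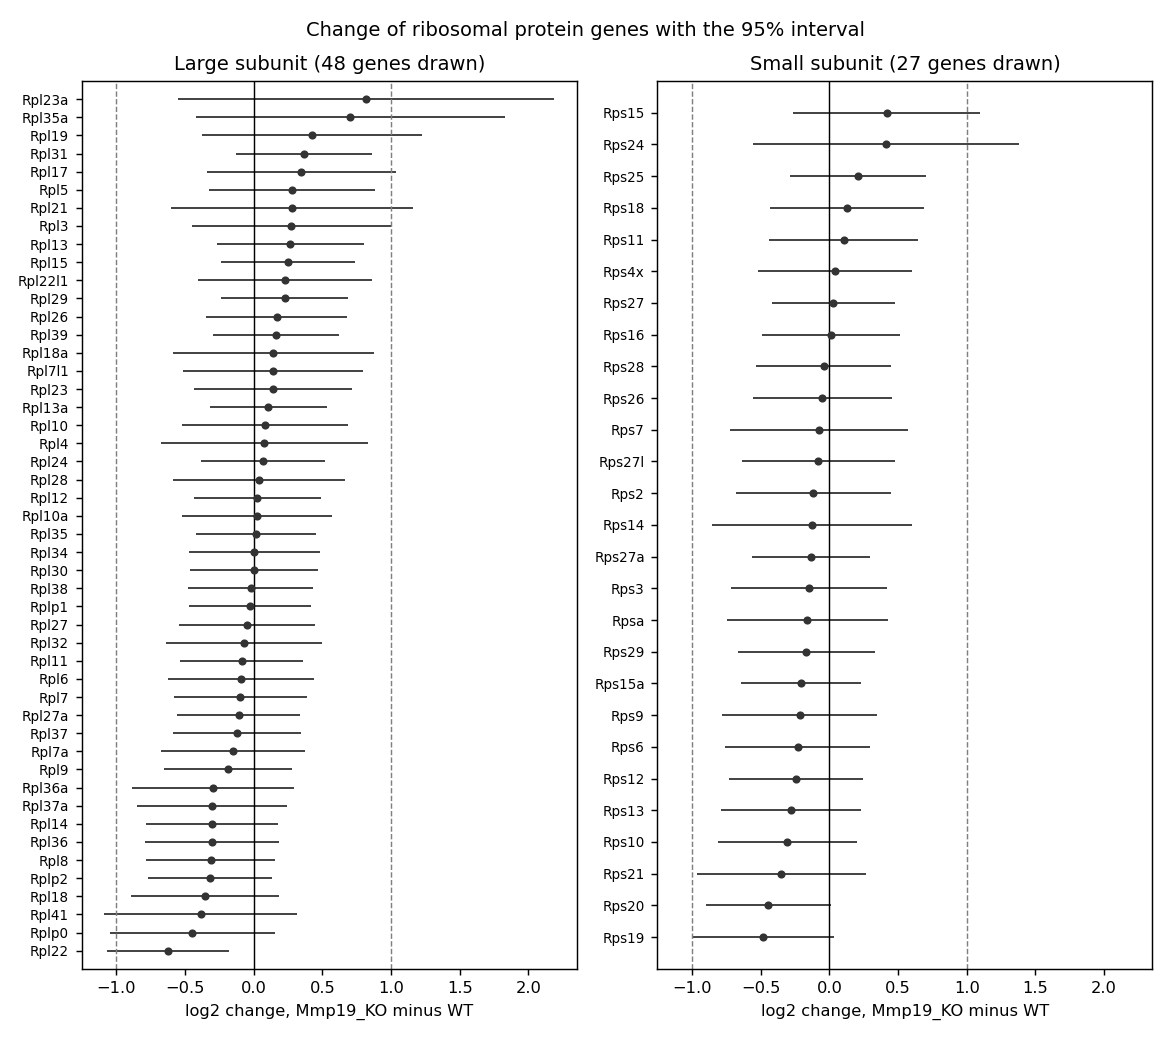
Log2 change, Mmp19_KO minus WT, of 75 ribosomal protein genes (points) with their 95% intervals (lines), by subunit; dashed lines stand at -1 and 1. Among the genes drawn, only the interval of Rpl22 leaves out 0 before adjustment, and the widest intervals belong to Rpl23a, Rpl35a and Rps24.

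At the lower end stood Rpl22, an RNA-binding protein of the large subunit. Its signal was 8.44, 8.40 and 8.30 in Mmp19_KO, against 9.15, 8.98 and 8.89 in WT. All Mmp19_KO values lay below all WT values, and the replicates of each group lay close together. The change was -0.63 ± 0.19 (SE, n = 3 a group), with a 95% interval from -1.07 to -0.18, and limma's adjusted p was 0.12. A second probe for Rpl22, A_52_P391718, gave a change of 0.02 ± 0.57, with values of 2.57, 3.72 and 3.47 in Mmp19_KO and 4.08, 2.02 and 3.61 in WT. Its groups overlapped and spread widely. The paralogue Rpl22l1, which can take the place of Rpl22 in the ribosome, had 6.34, 7.05 and 6.60 in Mmp19_KO and 6.73, 6.17 and 6.41 in WT. The groups of Rpl22l1 overlapped, and its change was 0.23 ± 0.27 (limma adjusted p = 0.66).

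Rps19, a protein of the head of the small subunit, had 4.21, 4.72 and 4.29 in Mmp19_KO and 4.79, 4.94 and 4.93 in WT, a change of -0.48 ± 0.22. Rps20, also of the head, had 9.55, 9.47 and 9.51 in Mmp19_KO and 10.14, 9.94 and 9.79 in WT, a change of -0.44 ± 0.19. In both genes every Mmp19_KO array was below every WT array, and limma's adjusted p was 0.26 for Rps19 and 0.25 for Rps20. Rpl41, which encodes a very short basic peptide, had 8.93, 9.54 and 9.85 in Mmp19_KO and 10.13, 9.63 and 9.72 in WT, with groups that overlapped and a change of -0.39 ± 0.30. The 4 genes named so far at this end, and Rplp0 described with the stalk, were below 0 in all 17 alternatives to the processing, and none was past the threshold in any of them.

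At the upper end 1 WT array stood apart in the genes that follow. Rpl23a, which lines the end of the exit tunnel where the signal recognition particle docks, had 7.53, 7.71 and 7.58 in Mmp19_KO, against 7.59, 5.35 and 7.42 in WT. Rpl35a, a large-subunit protein, had 6.50, 6.59 and 6.46 in Mmp19_KO, against 6.35, 4.66 and 6.43 in WT. WT replicate 2 lay far below every other array in both genes, and the remaining arrays nearly coincided. Their changes were 0.82 ± 0.58 and 0.70 ± 0.47 with all arrays, and 0.10 and 0.13 without WT replicate 2. Rps24, Rpl19 and Rps15 showed the same array at the bottom. Rps24, a small-subunit protein, had 9.57, 8.92 and 9.02 in Mmp19_KO and 9.36, 7.90 and 9.01 in WT. Its change was 0.41 ± 0.41 with all arrays and -0.01 without WT replicate 2. Rpl19, which takes part in a bridge between the subunits, had a change of 0.42 ± 0.34, and 0.06 without that array. Rps15, a head protein, had 0.42 ± 0.29, and 0.16 without it. None of these genes was past the threshold.

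Closest to 0 were Rpl30 and Rpl34 of the large subunit, at -0.00 ± 0.20 and 0.00 ± 0.20, and Rps16 of the small subunit, at 0.01 ± 0.21.

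**Figure D3:**
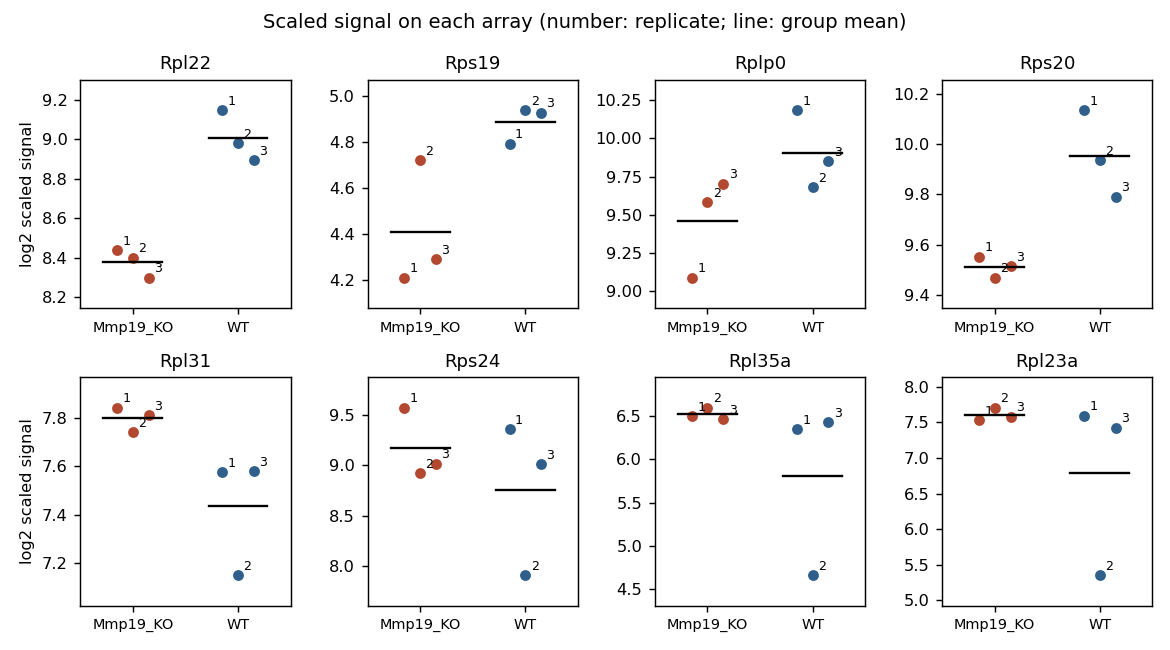
Log2 scaled signal of 8 ribosomal protein genes on each array, Mmp19_KO left and WT right, with replicate numbers beside the points and lines at the group means. Rpl22, Rps19 and Rps20 have all Mmp19_KO values below all WT values, and WT replicate 2 lies far below the other arrays for Rpl35a and Rpl23a.

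The start sites and promoters of these genes are shown because they carry what the family shares in sequence. Promoter entries of RefSeq on GRCm38.p6, which run from 250 bases before to 50 bases after an annotated start, were at hand for 61 of the 81 genes on the array. An annotated start at C followed by at least 4 bases that were each C or T was found in 13 of the 61 (21.3%), against 3.01% of 27025 genes. When a start up to 5 bases away on either side was allowed, 28 (45.9%) matched, against 21.2% of all. Below are 30 bases around the start of 4 genes with such a tract, and of Rpl22, which had none at its annotated start. Capitals mark the tract from the annotated start on.
Rps21, chr2:180257364-180257393, plus strand: taccgaggacccgccCTCCTgcccaatagt
Rplp2, chr7:141447636-141447665, plus strand: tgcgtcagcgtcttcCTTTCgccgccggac
Rps10, chr17:27635230-27635259, minus strand: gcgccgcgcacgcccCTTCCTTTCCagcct
Rpl35a, chr16:33056467-33056496, plus strand: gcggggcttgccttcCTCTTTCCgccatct
Rpl22, chr4:152325711-152325740, plus strand: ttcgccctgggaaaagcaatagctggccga
Counted from the annotated start, the tract of Rps10 ran over 10 bases, that of Rpl35a over 8, and those of Rps21 and Rplp2 over 5. In each of the 4 genes pyrimidines also stood directly before that start. The change was -0.35 for Rps21, -0.32 for Rplp2, -0.31 for Rps10 and 0.70 for Rpl35a. Tested genes with a tract at the start had a median change of -0.02 (n = 13), and those without one -0.05 (n = 45). This is a description, and an annotated start can lie some bases from the start used in fibroblasts.

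A short motif, CGGAAG, the core bound by ETS family factors, was searched on both strands of the same windows. It stood in 41 of the 61 genes (67.2%), against 18.8% of all genes with an entry. The following 24 bases around a match are from genes whose changes lay at the lower and the upper end, with the motif or its reverse complement CTTCCG in capitals.
Rpl41, chr10:128549155-128549178, minus strand: gggccggctCGGAAGtgacgacac
Rps21, chr2:180257345-180257368, plus strand: accctgaccCGGAAGcacttaccg
Rplp2, chr7:141447534-141447557, plus strand: aatgtcttcCTTCCGgtgcaccct
Rpl31, chr1:39367851-39367874, plus strand: cccgtgaccCGGAAGttgtacggc
Rps15, chr10:80292376-80292399, plus strand: tccgcagagCGGAAGctgttgagc
Rpl19, chr11:98026662-98026685, plus strand: ttagcgtgaCTTCCGgctacccag
Tested genes with the motif had a median change of -0.06 (n = 40), and those without it 0.03 (n = 18). GGGCGG, the box bound by Sp1, stood in 60.7% of the ribosomal protein genes and 38.2% of all. AAGATGG, a core bound by Yy1, stood in 16.4% against 7.28%. TATAAA, the TATA box, was found in 11.5% against 15.7%, and CACGTG, the E box bound by Myc, in 9.84% against 8.09%. All were searched on both strands, a gene counted if any of its promoters held the letters, and no motif contains another, though neighbouring matches can share bases. A match shows letters in a window, and binding was not measured.

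The stalk of the large subunit recruits elongation factors. Its scaffold Rplp0 had 9.09, 9.58 and 9.70 in Mmp19_KO and 10.19, 9.68 and 9.85 in WT. WT replicate 1 was the highest and Mmp19_KO replicate 1 the lowest of the 6, and the change was -0.45 ± 0.25 (limma adjusted p = 0.36). Rplp1 and Rplp2, the acidic proteins attached to it, had changes of -0.03 ± 0.19 and -0.32 ± 0.19, and Rpl12 at the stalk base 0.03 ± 0.20. Rplp2 had 9.45, 9.38 and 9.33 in Mmp19_KO, all below 9.76, 9.83 and 9.52 in WT. Rpl5 and Rpl11, which carry the 5S rRNA and can bind the p53 regulator Mdm2 when free of the ribosome, had 0.28 ± 0.25 and -0.09 ± 0.19. Rpl5 was lowest on WT replicate 2, at 6.52, with 7.33 and 7.08 on the other WT arrays and 7.25, 7.29 and 7.22 on the Mmp19_KO arrays.

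Around the exit of the peptide tunnel, where nascent secretory proteins meet the signal recognition particle, 9 of 10 genes had a change above 0 and 1, Rpl22, below it. The median over these genes was 0.16. Of all 12470 genes tested, 7022 had a change above 0, with a median of 0.08. None was past the threshold, and without WT replicate 2 the median was 0.04, with 8 above 0 and 2 below. When arrays were scaled on the probes detected on all of them, 6 were above 0 and 4 below. Without Mmp19_KO replicate 1 there were likewise 6 above and 4 below. Rpl31, one of these rim proteins, had 7.84, 7.74 and 7.81 in Mmp19_KO, all above 7.58, 7.15 and 7.58 in WT, with a change of 0.36 ± 0.21. Rpl26, Rpl39 and Rpl17, also of the rim, had changes of 0.17, 0.16 and 0.35. Rpl4, which reaches into the tunnel, had 0.08 ± 0.32, and Rpl35 had 0.02. Rpl24, which the list holds although it forms a bridge to the small subunit, had 0.07.

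In the small subunit, Rps2, Rps3 and Rps9, which surround the mRNA entry channel, had changes of -0.12, -0.15 and -0.22, with groups that overlapped in each. Rps6, the protein phosphorylated by the S6 kinases downstream of mTORC1, had 8.09, 8.43 and 8.52 in Mmp19_KO and 8.62, 8.35 and 8.76 in WT, a change of -0.23 ± 0.22. Mutations of a group of these genes cause Diamond-Blackfan anaemia in humans. Of that group, Rps19 was given above, and Rps24, Rps10, Rps7 and Rps26 had 0.41, -0.31, -0.08 and -0.05, so that both signs were found. Rps27a, made as a fusion with ubiquitin, had 8.94, 8.96 and 8.95 in Mmp19_KO and 9.17, 8.99 and 9.11 in WT, a difference of -0.14 ± 0.18 without overlap.

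Paralogues and their core genes showed no exchange past the threshold. The changes of the 5 tested paralogues ran from -0.82 to 0.23, and not all are given singly. Rpl7l1 had a change of 0.14 and Rpl7 of -0.10, and Rps27l had -0.08 and Rps27 0.03. Rpl3, whose muscle paralogue Rpl3l was not detected, had 0.27 ± 0.31, again with WT replicate 2 lowest at 7.51 against 8.56 and 8.34 on the other WT arrays. Rpl10, Rpl39, Rps4x and Rpl36a lie on the X chromosome, and Xist differed between the groups as given above. Their changes were 0.08, 0.16, 0.04 and -0.30, none past the threshold, and the part of sex in them was not tested. Some ribosomal proteins have symbols outside the rule, and 4 of them are given here. Fau had a change of 0.08, Rack1 of -0.12, Rpl36al of -0.07 and Rps3a1 of 0.28, none of them past the threshold.

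The arrays of a group also differed among themselves. The distance between the highest and the lowest WT array was greater than the change for 68 of 78 genes. A range over 3 single arrays tends to exceed a difference of group means, so this count is no test. The change was smaller than the pooled SD within groups for 48 of the 78 genes. Within a group the median SD was 0.15 in Mmp19_KO and 0.23 in WT, against 0.25 and 0.32 over all genes. Each gene was also set against its own mean over the 6 arrays. The median deviation of the 78 genes was 0.02, -0.04 and -0.02 on Mmp19_KO replicates 1 to 3, and 0.21, -0.12 and 0.05 on WT replicates 1 to 3. Over all genes these medians were -0.03, 0.16 and 0.03 in Mmp19_KO, and 0.00, -0.18 and 0.07 in WT. The low median of WT replicate 2 was thus shared by all genes. WT replicate 1 was the highest of all arrays for 40 genes and WT replicate 2 the lowest for 32. The Mmp19_KO arrays lay between these WT arrays in their medians. WT replicate 2 was the lowest WT array for 57 of 78 genes (73.1%), against 54.5% of all genes. It lay more than 1 log2 unit below the mean of the other WT arrays for 5, namely Rpl23a, Rpl35a, Rps24, Rpl21 and Rpl19.

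**Figure D4:**
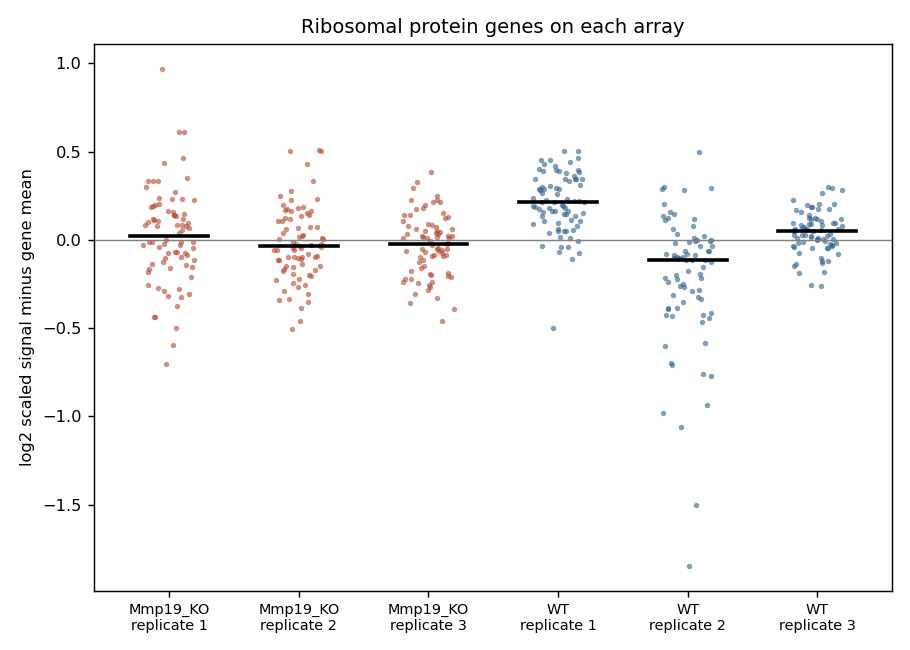
Log2 scaled signal of the 78 ribosomal protein genes on each array minus the gene's mean over 6 arrays (points), with the median of each array (line). WT replicate 1 has its median at 0.21 and WT replicate 2 at -0.12, and the Mmp19_KO medians lie from -0.04 to 0.02. Over all genes, not drawn, the medians of WT replicates 1 and 2 were 0.00 and -0.18.

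Each slide held the Mmp19_KO and the WT array of 1 replicate number, which allowed the comparison within slides. The median difference of the 78 genes was -0.17 within slide 1, 0.12 within slide 2 and -0.07 within slide 3. Values were lower in Mmp19_KO for 55, 28 and 51 of the genes on these slides. Over all genes the medians were -0.01, 0.33 and -0.03. The sign was the same on all slides for 21 genes lower and 13 higher in Mmp19_KO. The same count was not made over all genes, so these counts are no result about the family. Rpl22, Rps19 and Rps20 were lower in Mmp19_KO on every slide. Rpl23a differed by -0.06 on slide 1, 2.35 on slide 2 and 0.16 on slide 3, so that its change lay on the slide of WT replicate 2.

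The 78 genes had 162 tested probes, with several for 50 genes, and the probes were also read singly. Of these, 1 was past the threshold, against 4.64% of 24214 probes tested, and it was past it in 9 of 16 alternatives, not with slide as a block or without any 1 array other than WT replicate 2. The probe that represents each gene was past it for 0 of 78, as above.

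Some probes departed from the one that represents their gene. A_66_P125437 of Rpl30 had 0.72, 0.98 and 0.66 in Mmp19_KO and 2.01, 1.51 and 1.78 in WT, a change of -0.98 ± 0.22 (limma adjusted p = 0.06). A_51_P452820 of Rpl31 had 2.15, 2.16 and 2.14 in Mmp19_KO and 1.65, 0.22 and 1.39 in WT, a change of 1.06 ± 0.38 (limma adjusted p = 0.17). Both pairs of groups were separate, and neither change was past the threshold. The span between the probes of a gene had a median of 0.23 over the 50 genes, against 0.35 over 2819 genes with several probes, and 19 genes had probes of both signs. Many processed pseudogenes and transcript variants exist for ribosomal protein genes, and which of them a probe binds was not tested.

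**Figure D5:**
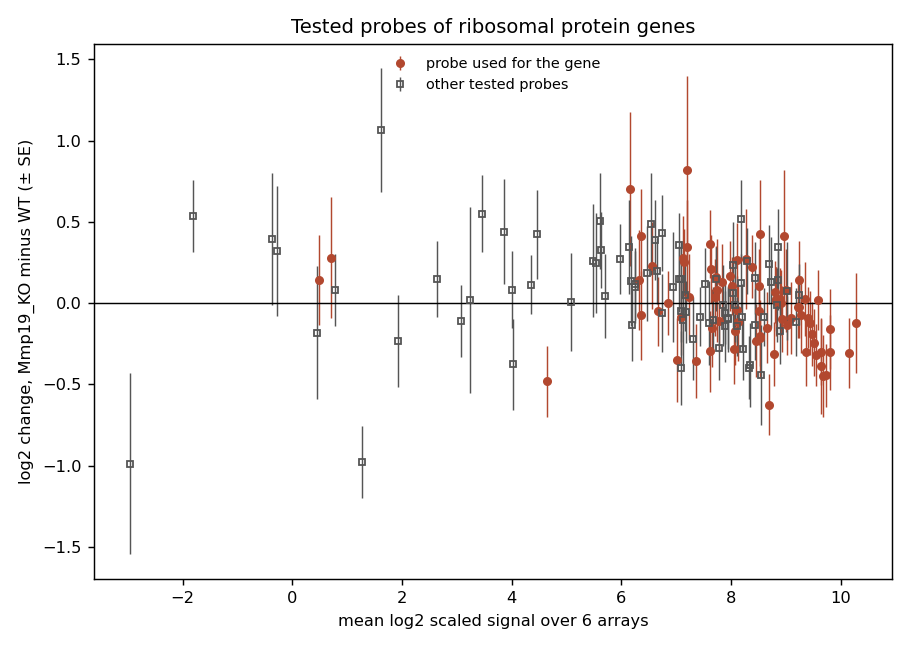
Log2 change, Mmp19_KO minus WT (± SE), of 156 tested probes of ribosomal protein genes by mean log2 scaled signal over 6 arrays; filled points are the probe that represents a gene, open squares are the others. Of the probes drawn, 0 were past the threshold, and the changes run from -0.99 to 1.06.

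The lists of other translation genes are read against the 4.8% of all genes past the threshold, and at their sizes a count of 0 lies near that share. Of 43 initiation factors none was past the threshold, and their median change was 0.02. Eif2s3x, an X-linked subunit of the factor that brings the first tRNA, had 3.45, 3.93 and 3.65 in Mmp19_KO and 2.61, 2.40 and 2.90 in WT, a change of 1.03 ± 0.23 (limma adjusted p = 0.06). The part of sex in the change of Eif2s3x was not tested. Eif4a3, an RNA helicase of the exon junction complex, had 0.77 ± 0.27. A list of 15 genes, mostly elongation and termination factors, held 0 past the threshold and had a median of -0.03. The smallest p in it belonged to Gspt2, a termination factor, and Nap1l1, a histone chaperone that is no translation factor, both at -0.55. The mTORC1 and TOP regulators, 15 tested, held none past it, with a median of 0.10, Akt1s1 at 0.86 ± 0.28 and Larp1 at -0.48 ± 0.25. RNA polymerase I and its factors, which make the rRNA precursor, held 0 of 18, with a median of -0.12.

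Of 75 ribosome biogenesis factors tested, 54 had a change below 0 and 21 above it, with a median of -0.16. Of all genes tested, 5448 were below 0 and 7022 above it. Whether the balance of this list turns with the scaling or with single arrays was not examined. In the list 2 genes were past the threshold, in opposite directions. Ddx21, a nucleolar helicase, fell by 1.15 on the log2 scale, with 2.1847, 2.2155 and 1.9996 in Mmp19_KO and 3.0452, 3.5471 and 3.2435 in WT (SE 0.21, limma adjusted p = 0.04). Tsr2, known in yeast as the chaperone of Rps26, rose by 1.38, with 0.46, 0.01 and 0.02 in Mmp19_KO and -0.99, -1.72 and -0.96 in WT (SE 0.28, limma adjusted p = 0.04). Groups were separate in both genes. Rps26 itself had 6.75, 6.56 and 6.63 in Mmp19_KO and 6.89, 6.41 and 6.79 in WT, which overlapped. Each call was lost in 8 of 16 alternatives, among them the slide block and the removal of any 1 array other than WT replicate 2, with adjusted p up to 0.22 for Ddx21 and 0.21 for Tsr2.

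The ribosome of the mitochondrion, encoded by a separate gene family, served as the closest comparison. Of 77 tested genes 1 was past the threshold and the median change was 0.03. Mrps12, a small-subunit protein of that ribosome, had 2.84, 2.96 and 2.79 in Mmp19_KO and 4.30, 4.41 and 4.42 in WT, and fell by 1.51 (SE 0.18, limma adjusted p = 0.01). The replicates of each group were nearly equal. The call was lost with no filter on dim probes and without Mmp19_KO replicate 3 or WT replicate 3, where the adjusted p reached 0.09. The difference between the cytosolic and the mitochondrial family was not tested.

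Other cell type markers differed in the same cultures. Col1a1, a fibrillar collagen chain, had 8.590, 7.778 and 8.003 in Mmp19_KO and 6.535, 6.685 and 6.735 in WT, and rose by 1.47 (limma adjusted p = 0.03), a call lost in 6 of 16 alternatives, among them the slide block and leaving out replicate 1 or 3 of either group. Of 14 fibroblast markers it was 1 of 2 past the threshold, the other being its partner chain Col1a2, which rose by 1.25 (limma adjusted p = 0.04), a call lost in 11 of 16, among them the removal of any 1 array other than WT replicate 2. Of 8 mesothelial markers, 6 were past the threshold and higher in Mmp19_KO. Their summed signal, in multiples of each array's 75th percentile, ran from 45.6 to 131 in Mmp19_KO and from 2.73 to 18.5 in WT. Only 4 of the 8 were well above background on all 6 arrays, and the others entered the test through 1 group. When probes had to be well above background on all 6 arrays, 3 of 4 tested were past the threshold. With no filter on dim probes 1 of the 8 was past it. The count was also 1 of 8 without Mmp19_KO replicate 2, without Mmp19_KO replicate 3 or without WT replicate 3. No epithelial, macrophage or endothelial marker was past the threshold, of 9, 5 and 5 tested. Of all genes 4.8% were past it, and at these sizes a count of 0 lies near that share. Proliferation genes, 20 tested, held none past it, with 16 below 0 and a median of -0.31. Their median SE was 0.61, and the 95% interval lay within 1 log2 unit of 0 for 0 of the 20. Their summed signal was 119, 201 and 154 on Mmp19_KO replicates 1 to 3, and 348, 87.6 and 269 on WT replicates 1 to 3. WT replicate 2 was thus the lowest of the 6 arrays and WT replicate 1 the highest. The part of mesothelial cells in the values of the ribosomal protein genes was not tested.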

How the data were processed

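One-colour Agilent arrays of 3 Mmp19_KO and 3 WT cultures were grouped by sample titles. The deposited scanner tables hold a processed intensity per spot, background-subtracted by Feature Extraction 10.7.3.1 per the file headers; the submitters' processing notes name version 9.1. The array design follows mm9, per the file headers. In addition, log2 values for 35844 probes were deposited by the authors; how these were centred across arrays is unknown, their column medians ran from 5.51 to 5.76, and they served as an alternative.

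Control and outlier spots were left out and log2 values of repeated spots averaged (55681 probes). Each array's 75th percentile was subtracted. Probes flagged well above background on each array of at least 1 group were tested with limma 3.58.1 in R 4.3.3 (lmFit, eBayes, two-sided, Benjamini-Hochberg over all 24214 probes, threshold 0.05), after a test on simulated data. Intervals are 95% intervals of that fit, and p-values measure the spread between these cultures. No spot was saturated; the number of arrays limits the precision. RefSeq accessions named 47.4% of probes, and a gene is represented by its tested probe of highest mean. The members, gene lists and tests were chosen with earlier results of these data known. Genes were named by rule: any past the threshold, the 6 highest and 6 lowest changes, the 3 closest to 0, undetected members, and role groups; in other lists, up to 4 past the threshold or 2 of smallest p. Single probes, Rpl15, Rpl21 and the genes named only for separate groups or for their sequences were chosen after their values were seen. Alternatives covered background correction, scaling, filters, the authors' values, the prior, slide as a block and leaving out each array. Deviations of same-numbered arrays from their group means correlated at 0.10, -0.02 and 0.21, so arrays were not treated as pairs. Values of some single genes are not reported here.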

Additional observations from a re-analysis of the deposited data

How the results depend on the processing

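In each of 17 alternatives, the count of ribosomal protein genes past the threshold was 0 in both directions, and the smallest adjusted p was 0.052, with a trended robust prior. Their median change ran from -0.16, with the 75th percentile taken over probes well above background on all arrays, to 0.05, without WT replicate 1. The median of all genes was 0.08, against -0.03 with that scaling and -0.05 with the authors' values. Of the 78 genes, 42 kept their sign in every alternative and 36 had the other sign in at least 1. A count of 0 cannot fall, and at an unadjusted p of 0.05 the count of ribosomal protein genes was 1, and 0 to 7 over the alternatives. The count of all probes past the threshold was 1124. It was 633 with normexp, 650 when probes had to be well above background on all 6 arrays, 113 with no filter, 385 with the replicate block (slide), and between 107 and 1716 when 1 array was left out, the lowest without Mmp19_KO replicate 3 and the highest without WT replicate 2. Of the 1124, 62.0% were higher in Mmp19_KO (697), and of 1171 with the percentile over detected probes, 51.9% (608). The cause of these shifts was not tested. With slide as a block, the count of ribosomal protein genes past the threshold was 0 as well.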
